A study of Mus musculus with 34 samples.

Results

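The nuclear genes of oxidative phosphorylation were examined in the liver of juvenile mice with altered thyroid hormone (TH) levels. The genes were chosen by name: every non-control probe was taken whose systematic name matched, by RefSeq accession, a mouse symbol starting with Ndufa, Ndufb, Ndufc, Ndufs, Ndufv, Sdha to Sdhd, Uqcr, Cox4 to Cox8 or Atp5. This gave 113 probes of 90 genes, out of 41174 probes on the array, of which 23374 had a symbol and stood for 16535 genes. By complex there were 36 genes of complex I, 4 of complex II, 7 of complex III, 18 of complex IV and 17 of complex V. The remaining 8 genes share a prefix but encode assembly factors that are not part of the finished complexes. Ndufa4 is counted with complex I by its prefix, although its protein is now placed in complex IV.

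Oxidative phosphorylation takes place in the inner mitochondrial membrane. Complex I (NADH dehydrogenase) and complex II (succinate dehydrogenase) pass electrons to ubiquinone, complex III passes them to cytochrome c, and complex IV (cytochrome c oxidase) passes them to oxygen. Complexes I, III and IV pump protons as they do so, and complex V (ATP synthase) uses the proton gradient to make ATP. THs are known regulators of metabolic rate. They act through nuclear receptors on target genes, some of which encode regulators of mitochondrial biogenesis. Several complex IV subunits exist as a form found in most tissues and a form typical of heart and skeletal muscle, and Cox8b and Cox7a1 are also high in brown fat.

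Livers were taken from C57BL/6 pups on postnatal day (PND) 15. Hypo pups nursed from dams whose drinking water contained methimazole and sodium perchlorate, which together block TH synthesis and iodide uptake, from PND 13 to 15 by the labels. The methods put the first day of exposure earlier than the labels do. Hyper pups received 1 intraperitoneal injection of THs 4 h before collection. Hypo+ pups had the same water exposure as hypo pups and then an injection of THs, at a lower dose than hyper pups, also 4 h before collection. Control and hypo pups were injected with saline. There were 4 control, 4 hypo, 5 hyper and 4 hypo+ males, and 4 control, 5 hypo, 5 hyper and 3 hypo+ females. Each of the 34 arrays held the RNA of 1 pup, labelled with Cy5, beside a purchased universal mouse reference RNA, labelled with Cy3. A value for a pup is therefore the log2 of its signal over the reference signal of the same probe, and values of different probes were not set against each other. A log2 fold-change is the difference between the means of 2 groups on this scale, so 1 unit is a 2-fold change. The hypo+ pups were limited to those with suitable serum T4. The labels do not name the dam of a pup. By the study's methods the pups of 1 sex were independent, while male and female pups may share a dam. In RNA of whole liver, fewer cells of a type and less RNA per cell cannot be told apart.

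The arrays measured these genes well. In 86 of the 90 genes the probe lay well above background, by the flag of the scanner software, in the pup channel of all 34 arrays. Over all probes this held for 54.2%. Cox8c was above background on no array, Cox7b2 on 9, Cox8b on 21 and Cox4i2 on 27. The median Cy5 signal per array lay between 146 and 199 over all probes. Within groups of 1 sex, the median standard deviation (SD) was 0.148 in males and 0.137 in females over the 90 genes, against 0.138 and 0.135 over all probes well above background. The number of arrays limits the precision of every comparison. All 7 hepatocyte markers examined, among them Alb and Ttr, were well above background on all 34 arrays, as the labelled tissue requires. In 5 livers muscle or brown fat markers were raised. Hypo male 311 and hyper female 499 had 4 and 3 of 6 brown fat markers 2-fold or more above the control mean of their sex. Hypo female 721, hyper male 498 and hypo+ female 763 had 7, 4 and 3 of 10 muscle markers that high. In 3 control pups, male 832, male 522 and female 831, 7, 6 and 6 of 9 pancreatic acinar markers were raised to that extent. The control means include these pups, so the rule can miss smaller amounts in others. Hypo+ female 543 had 2 of the 9 that high. Her acinar marker Cpb1 read 3.65, against -0.01, 0.16 and 0.27 in control females 523, 394 and 882, and she was not left out with the controls. Leaving out these 3 controls changed the number of called oxidative phosphorylation genes in no comparison. As none was called with all pups and fewer controls remained, this count cannot show whether acinar tissue affected the values.

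Promoters of 75 of the 90 genes were found in a RefSeq table for the build GRCm38.p6, which holds 250 bases before and 50 bases after each transcription start. Each was searched on both strands for the cores of 3 factors known at respiratory chain genes, and for the TH receptor half-site. The NRF-1 core GCGCATGCG occurred in 9 of 75 genes (12%) and in 1.95% of the 27025 genes of the table. The YY1 core AAGATGGCG occurred in 7 (9.33%, against 1.64%), and the GABP core CCGGAAGT in 5 (6.67%, against 4.31%). At least 1 of the 3 cores was found in 20 genes (26.7%), against 7.48% of all genes. The half-site AGGTCA occurred in 16 (21.3%, against 18.1%). The DR4 element, a pair of direct half-sites with a spacer of 4 bases, was found in none of the 75 and in 0.0148% of all genes. A match is a description of the letters in this window and does not show binding.

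The following promoters are shown on the strand of the gene, with the matched letters in capitals. Uqcr11 (complex III, minus strand, chr10:80406772-80407071) is shown for holding both a GABP and an NRF-1 core, and Ndufs7 (complex I, plus strand, chr10:80249199-80249498) for the YY1 core just after its start. Atp5k (complex V, minus strand, chr5:108434350-108434649) and Ndufaf4 (complex I assembly, plus strand, chr4:24897833-24898132) each hold an NRF-1 core and a half-site. Both recur in the comparisons. Cox8b (complex IV, minus strand, chr7:140900397-140900696), whose level set single pups apart, holds none of the 5 motifs. Ndufaf4 and Cox8b were chosen after their values were seen.
Uqcr11: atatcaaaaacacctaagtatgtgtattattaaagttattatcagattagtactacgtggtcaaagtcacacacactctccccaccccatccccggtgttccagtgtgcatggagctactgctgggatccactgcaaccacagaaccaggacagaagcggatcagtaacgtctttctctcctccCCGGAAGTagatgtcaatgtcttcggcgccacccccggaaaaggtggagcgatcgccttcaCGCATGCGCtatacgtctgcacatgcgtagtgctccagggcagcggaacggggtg
Ndufs7: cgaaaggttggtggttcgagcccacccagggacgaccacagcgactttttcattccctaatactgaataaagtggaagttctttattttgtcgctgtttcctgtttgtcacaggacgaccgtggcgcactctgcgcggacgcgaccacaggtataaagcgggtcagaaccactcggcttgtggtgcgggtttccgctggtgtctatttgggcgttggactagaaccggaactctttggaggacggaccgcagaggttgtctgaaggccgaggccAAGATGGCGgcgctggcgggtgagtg
Atp5k: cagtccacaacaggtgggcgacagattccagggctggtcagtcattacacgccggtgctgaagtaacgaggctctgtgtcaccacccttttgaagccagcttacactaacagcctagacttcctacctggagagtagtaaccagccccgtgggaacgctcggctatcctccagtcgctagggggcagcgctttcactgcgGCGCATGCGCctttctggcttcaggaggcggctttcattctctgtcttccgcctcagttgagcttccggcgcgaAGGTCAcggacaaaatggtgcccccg
Ndufaf4: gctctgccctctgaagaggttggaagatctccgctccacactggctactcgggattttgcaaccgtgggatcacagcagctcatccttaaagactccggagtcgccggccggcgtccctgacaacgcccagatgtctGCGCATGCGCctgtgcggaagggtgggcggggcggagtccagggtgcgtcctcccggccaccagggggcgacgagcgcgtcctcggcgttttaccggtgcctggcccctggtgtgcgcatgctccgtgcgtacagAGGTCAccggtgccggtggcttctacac
Cox8b: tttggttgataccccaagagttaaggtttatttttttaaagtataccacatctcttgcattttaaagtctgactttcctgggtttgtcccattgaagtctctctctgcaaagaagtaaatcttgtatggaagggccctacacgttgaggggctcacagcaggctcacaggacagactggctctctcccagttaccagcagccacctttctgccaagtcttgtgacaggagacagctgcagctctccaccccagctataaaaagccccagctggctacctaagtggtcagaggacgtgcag

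Dio1, the deiodinase that converts T4 to T3 in liver and a known TH target, served as a check of the treatments. In males its log2 ratio was 5.60, 6.20, 5.60 and 5.96 in controls, 4.58, 4.80, 3.69 and 4.48 in hypo pups, 5.93, 6.59, 5.99, 6.27 and 6.28 in hyper pups, and 5.78, 5.87, 6.08 and 5.88 in hypo+ pups. The female values were 6.11, 6.42, 6.25 and 5.86 in controls, 4.13, 5.07, 4.92, 3.47 and 4.36 in hypo pups, 6.33, 7.14, 6.42, 6.16 and 6.19 in hyper pups, and 6.44, 6.63 and 6.17 in hypo+ pups. Every hypo pup lay below every other pup of its sex. Dio1 fell by 1.46 in hypo males (limma, adjusted p = 0.0124) and by 1.77 in hypo females (limma, adjusted p = 0.00923) on the log2 scale. From hypo to hypo+ it rose by 1.52 in males and 2.02 in females (limma, adjusted p = 0.0015 and 0.00201). In hyper pups the differences of 0.37 and 0.29 did not pass the test. The fall in hypo males kept its call in 25 of 31 recomputations. It was lost with background correction (-1.38), under median centring (-1.43), in the scanner's ratios (-1.01), with only the 2 groups in the fit (-1.46), without the 3 controls with acinar markers (-1.40) and without the 2 slides described below (-1.47). The fall in hypo females kept it in 28 of 31 and lost it under median centring (-1.47), in the scanner's ratios (-1.25) and with only the 2 groups (-1.77). From hypo to hypo+ the call was lost in the scanner's ratios in both sexes (1.10 and 1.47) and in females also with only the 2 groups (2.02). Of the other known TH targets examined, Me1, the cytosolic malic enzyme, rose from hypo to hypo+ by 0.66 in males and 0.95 in females (limma, adjusted p = 0.021 and 0.000438). The male call of Me1 was lost without hypo male 311 (0.63) or 723 (0.59) or hypo+ male 454 (0.60) or 761 (0.65). Thrsp, a regulator of fat synthesis, was at -1.55 ± 0.41 and -1.48 ± 0.31 in hypo pups, and Klf9, a transcription factor, at -0.47 ± 0.24 and -0.39 ± 0.15, without passing the test. In hyper males and females Thrsp was at 0.74 ± 0.39 and 1.28 ± 0.31 and Me1 at 0.34 ± 0.12 and 0.39 ± 0.10. Me1 was at -0.42 ± 0.12 and -0.46 ± 0.10 in hypo pups, and none of these values passed. RT-qPCR in the paper found Dio1 and Me1 raised in hyper pups of both sexes. By permutation on these arrays, the paper reported Thrsp as significantly lower in hypo pups of both sexes, and RT-qPCR also showed a fall. Its arrays also called Thrsp in hyper females and Me1 in hypo females. The limma test used here thus did not call every gene that the paper called, which limits how an absence of calls is read.

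**Figure D1:**
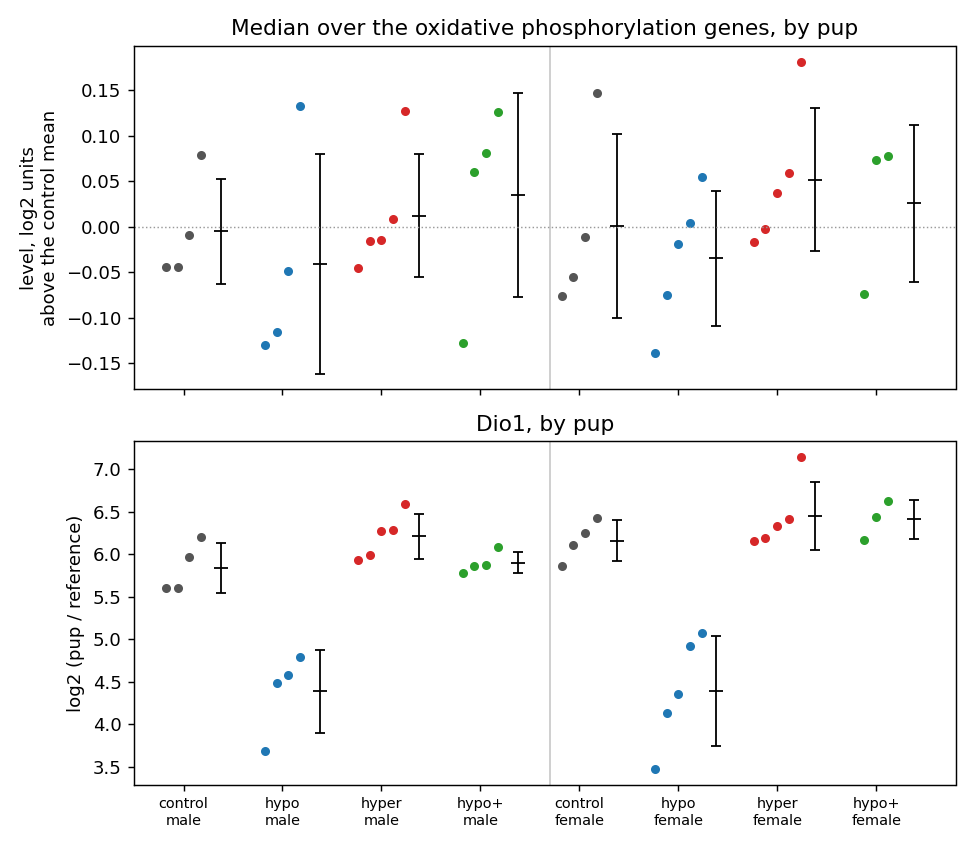
Upper panel: for each of the 34 pups, the median over the 90 oxidative phosphorylation genes of the log2 ratio minus the mean of the controls of the same sex. Lower panel: log2 ratio of pup to reference for Dio1. Points are pups, bars are the mean ± SD of a group. The hypo pups stand apart in Dio1 in both sexes, while in the oxidative phosphorylation genes all groups overlap within a span of -0.14 to 0.18.

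The oxidative phosphorylation genes showed no such separation. The level of a pup was taken as the median, over the 90 genes, of its difference from the control mean of its sex. In males this level averaged -0.00 ± 0.058 (SD, n = 4) in controls, -0.04 ± 0.12 (n = 4) in hypo, 0.01 ± 0.067 (n = 5) in hyper and 0.03 ± 0.11 (n = 4) in hypo+ pups. In females it averaged 0.00 ± 0.10 (n = 4), -0.03 ± 0.074 (n = 5), 0.05 ± 0.079 (n = 5) and 0.03 ± 0.086 (n = 3). All 8 groups overlapped, as the plot of levels by pup shows, and no test was made on this level. The slide moved with this level. On 2 slides scanned together, 1 with males and 1 with females, all 8 pups lay above the control mean, between 0.05 and 0.18, and each of these slides held 1 pup of every group. On the slide with 1 pup of each sex, hypo+ male 363 and hypo+ female 601 were also above it, at 0.081 and 0.073. The 8 pups of the 2 slides were also highest in the hepatocyte markers. Their median over these markers lay 0.39 to 0.88 above the control mean, against at most 0.27 in the other pups. The high level on these slides was thus not particular to the oxidative phosphorylation genes, and its cause was not tested. Among pairs of groups on 1 slide, hyper females lay above control females on 4 of 4 slides, by 0.03 to 0.11. On only 2 slides each, hypo+ females lay above hypo females on 2 of 2, by 0.02 to 0.06, and above control females on 0 of 2. Those differences from controls were -0.07 and -0.02, although the mean level of hypo+ females was 0.03 against 0.00 in controls. The remaining comparisons went both ways. Hypo pups were above controls on 1 of 3 slides in males and 1 of 4 in females. Hyper males were above control males on 3 of 4, and hypo+ males were above control males on 1 of 3 and above hypo males on 1 of 2.

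After water exposure alone, none of the 90 genes passed the threshold in either sex. With limma, 0 of 90 genes had an adjusted p below 0.05 in hypo males (0.0971% of all probes did) or hypo females (0.155% of all probes). With so few probes called, 0 of 90 lies near the array-wide share and is not particular to these genes. This holds for the comparisons below as well. At an unadjusted p below 0.05 there was 1 gene in males (5.19% of all probes) and 2 in females (4.72% of all probes). The median log2 fold-change over the 90 genes was -0.03 in males and -0.03 in females, against 0.00 and -0.00 over all probes, and the female median turned to 0.04 when arrays were only centred on their median (median centring) to 0.03 with background correction and to 0.02 without control female 831. The fold-change lay below 0 for 60 genes in males and for 63 in females, and 46 genes were below 0 in both sexes (51.1%, against 29.6% of all probes). By complex the medians ranged from -0.05 in complex III to 0.00 in complex II in males, and from -0.05 in complex III to -0.01 in complex V in females, where all 5 turned above 0 under median centring and with background correction. In males complexes I and V turned above 0 with background correction, and complex II turned below 0 under median centring, in the Cy5 channel alone and in the scanner's ratios. Of the 8 assembly factors, 7 lay below 0 in both sexes (87.5%, against 29.6% of all probes), with no other scaling computed for these 8.

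**Figure D2:**
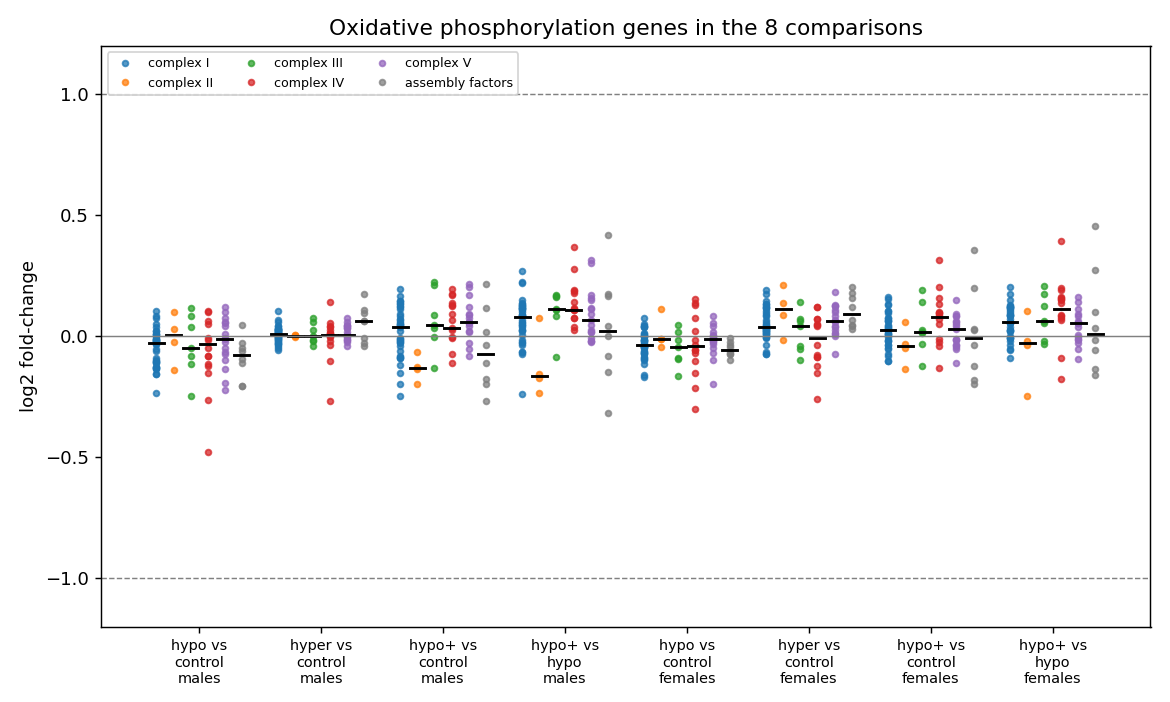
Log2 fold-change in the 8 comparisons, by sex and complex. Each point is 1 of the 86 genes well above background on all arrays, short bars are the median over all genes of a complex, and dashed lines mark a 2-fold change. All points lie between -0.48 and 0.46. From hypo to hypo+ the bars of complexes I, III, IV and V lie above 0, but below 0 when arrays were only centred on their median, and that of complex V in males also in the Cy5 channel alone.

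The ranges of hypo and control pups overlapped in the 3 subunits that mark complexes I, II and IV. Ndufs1, the largest subunit of complex I, read 0.87, 1.03, 0.94 and 1.00 in control males and 0.96, 1.06, 0.85 and 0.97 in hypo males. In females it read 0.88, 1.00, 0.82 and 1.00 in controls and 0.88, 1.02, 0.74, 0.88 and 0.97 in hypo pups. These ranges overlap nearly in full, and the log2 fold-change was -0.00 ± 0.05 (SE) in males and -0.03 ± 0.07 in females. Sdha, the flavoprotein subunit of complex II, read 1.98, 2.20, 2.33 and 2.24 in control males against 2.44, 2.33, 2.33 and 2.06 in hypo males. Its values in females were 2.20, 2.16, 2.18 and 2.30 in controls and 2.22, 1.95, 2.20, 2.04 and 2.58 in hypo pups. The fold-change of Sdha was 0.10 ± 0.09 in males and -0.01 ± 0.12 in females. Cox4i1, the common form of subunit 4 of complex IV, read 0.13, 0.41, 0.15 and 0.21 in control males and 0.17, 0.57, 0.27 and 0.15 in hypo males. Control females read 0.10, 0.44, 0.17 and 0.20 and hypo females 0.06, 0.39, 0.41 and 0.35, with the spot of hypo female 893 left out as an outlier. Its fold-change was 0.06 ± 0.09 and 0.08 ± 0.10. For all 3 genes limma gave an adjusted p of 1 in both sexes.

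Among the other subunits the differences that pointed the same way in both sexes were small. Ndufc1, an accessory subunit of complex I, was at -0.13 ± 0.12 in hypo males and -0.16 ± 0.10 in hypo females. Sdhd, a membrane anchor of complex II, was at -0.14 ± 0.08 and -0.04 ± 0.06. Uqcrfs1, the Rieske iron-sulfur protein of complex III, was at -0.25 ± 0.15 and -0.09 ± 0.11. Atp5k, subunit e of complex V, was at -0.22 ± 0.13 and -0.20 ± 0.08. Its log2 ratio in females was 1.31, 1.50, 1.16 and 1.37 in controls and 1.08, 1.21, 1.11, 1.18 and 1.10 in hypo pups, so only the lowest control overlapped with the hypo pups. In males it was 1.56, 1.53, 1.29 and 1.52 against 1.27, 1.66, 0.90 and 1.19, with hypo male 576 above all controls. Cox5a, a complex IV subunit that was picked after its values were seen, lay at -0.26 ± 0.13 and -0.21 ± 0.08. None of these passed, and in females limma gave adjusted p-values of 0.9 for Atp5k and 0.72 for Cox5a, the smallest among the 90 genes there.

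Hyper pups, 4 h after TH injection alone, also had 0 of 90 genes called with limma, in males (0.0753% of all probes were) and in females (0.158% of all probes). Unadjusted p-values were below 0.05 for 0 genes in males (2.98% of all probes) and 4 in females (6.15% of all probes). The median log2 fold-change was 0.01 in males and 0.05 in females, against 0.00 and -0.01 over all probes, and the male median turned to -0.11 under median centring and -0.05 with background correction, while the female median stayed above 0 under each of the 5 other scalings. In females 67 of 90 genes lay above 0, against 46.7% of all probes, and in males 56 did, against 50.3%. Ndufs1 read 1.04, 1.04, 1.02, 1.04 and 1.01 in hyper males, near or just above the upper end of the 0.87 to 1.03 of the 4 controls (fold-change 0.07 ± 0.05, limma adjusted p = 1). Hyper females read 0.91, 1.10, 0.81, 0.80 and 0.97, on both sides of their controls.

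Complex II had the largest median in hyper females, 0.11, over 4 genes. Sdhb, its iron-sulfur subunit, was at 0.21 ± 0.11 in females and 0.00 ± 0.13 in males, and Sdhd at 0.14 ± 0.06 and 0.00 ± 0.08. Sdha was at -0.02 ± 0.12 in females by its brighter probe, while its other probe gave 0.15. The complex II level was highest in hyper females 585 and 783 and in hypo female 575, at 0.25, 0.27 and 0.26. These pups came from 2 slides, each of which also held a control female. Uqcrc1, a core protein of complex III, was at 0.08 ± 0.12 in males and 0.07 ± 0.13 in females, and Atp5g1, 1 of 3 genes for subunit c of complex V, at 0.04 ± 0.10 and 0.18 ± 0.11. Of the assembly factors, 8 of 8 lay above 0 in hyper females, with a median of 0.09, against 5 of 8 in hyper males, with no other scaling computed for these 8. In both sexes 62.5% of them lay above 0, against 27.4% of all probes.

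In hypo+ pups compared with controls, limma again called 0 of 90 genes in males (0.0267% of all probes) and in females (0.0219% of all probes). Without adjustment, 4 genes had a p below 0.05 in males (7.56% of all probes) and 2 in females (4.79% of all probes). The medians over the 90 genes were 0.04 and 0.03. Both turned below 0 under median centring (-0.33 and -0.06), in the Cy5 channel alone (-0.07 and -0.04) and in the authors' normalized values (-0.03 and -0.02), and the male median also in the scanner's ratios (-0.01), so no direction can be given. Ndufa2, an accessory subunit of complex I, was at 0.19 ± 0.09 in males and 0.16 ± 0.10 in females. Uqcrq, a small subunit of complex III, was at 0.21 ± 0.12 and 0.19 ± 0.12, and Atp5l, subunit g of complex V, at 0.20 ± 0.09 and 0.15 ± 0.10. Sdhb was at -0.20 ± 0.13 and -0.13 ± 0.13. Ndufs1 read 0.99, 0.98, 0.86 and 0.92 in hypo+ males and 0.89, 0.97 and 0.98 in hypo+ females, within the range of the controls of each sex for all but hypo+ male 761. Cox4i1 read 0.48, 0.40, 0.28 and 0.45 in males and 0.20, 0.41 and 0.55 in females, with fold-changes of 0.18 ± 0.09 and 0.16 ± 0.11.

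The comparison of hypo+ with hypo pups sets a TH injection against a saline injection within water-exposed pups, and it called the most probes over the whole array, 0.369% in males and 0.556% in females. Of the 90 genes limma called 0 in both sexes. At an unadjusted p below 0.05 there were 9 genes in males (9.18% of all probes) and 4 in females (7.76% of all probes). Across the alternatives and with each pup left out in turn, the number of called genes remained 0 in all 8 comparisons but this 1 in males. Without hypo male 576, Ndufa5, an accessory subunit of complex I picked after its values were seen, was called in males (0.38, limma adjusted p = 0.0374). With all pups it stood at 0.27 ± 0.09 (limma, adjusted p = 0.33). The medians were 0.09 in males and 0.06 in females, against -0.01 over all probes in each sex, and they turned to -0.08 and -0.10 under median centring. Above 0 lay 67 genes in males and 63 in females, and 53 in both (58.9%, against 28.8% of all probes).

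By complex, the median from hypo to hypo+ was 0.08 in males and 0.06 in females for complex I, 0.11 and 0.06 for complex III, 0.11 and 0.11 for complex IV and 0.07 and 0.05 for complex V, all of which lay below 0 under median centring, as did complex V in males in the Cy5 channel alone (-0.01). Complex II stood at -0.16 and -0.03, below 0 in every scaling tried, with 3 of its 4 genes below 0 in both sexes. Sdha read 2.44, 2.33, 2.33 and 2.06 in hypo males against 2.06, 2.17, 1.86 and 2.13 in hypo+ males, a difference of -0.24 ± 0.09 (limma, adjusted p = 0.387). In females it was -0.04 ± 0.13. Sdhb was at -0.17 ± 0.13 in males and -0.25 ± 0.12 in females, and Sdhc, a membrane anchor, at -0.16 ± 0.10 and -0.02 ± 0.12, whereas Sdhd was at 0.08 ± 0.08 and 0.10 ± 0.06. No test separated complex II from the others.

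Ndufaf4, an assembly factor of complex I that was picked after its values were seen, had the largest difference from hypo to hypo+ in both sexes among the 86 genes well above background on all arrays. In males its log2 ratio was 0.79, 0.98, 0.27 and 0.96 in hypo and 1.01, 1.10, 1.42 and 1.14 in hypo+ pups. Female ratios were 0.82, 0.56, 0.99, 0.43 and 0.51 in hypo and 1.25, 1.28 and 0.82 in hypo+ pups. The male groups did not overlap and the female groups did, in 1 hypo+ pup. The differences were 0.42 ± 0.14 (limma, adjusted p = 0.304) and 0.46 ± 0.13 (limma, adjusted p = 0.16). Another probe gave 0.33 and 0.19, and the last, above background on 11 arrays, gave 0.08 and 0.03. Its promoter, printed above, holds an NRF-1 core 113 bases before the start and a half-site at base 22 after it.

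The intervals show the precision for each gene taken alone, from the spread between pups under the main scaling. They are not adjusted for the number of probes and do not cover shifts between scalings. Under median centring the complex I median in hypo+ males against controls moved from 0.04 to -0.34, for example. For the 86 genes well above background on all arrays, the 95% confidence interval of the log2 fold-change lay within a 1.5-fold change in either direction for 85, 85, 84 and 83 genes in males (hypo, hyper and hypo+ against control, and hypo+ against hypo) and for 84, 83, 84 and 82 in females. It lay within a 2-fold change for all 86 in every comparison but 1. The exception was Cox7c, a small complex IV subunit picked after its values were seen, in hypo males, at -0.48 with a lower bound of -1.05. Cox7c also had the largest SD within groups of these 86 genes in males, 0.428. The interval reached from the estimate to either side by 0.21 at the median gene in hypo males and 0.19 in hypo females. The smaller differences named above therefore could not be told from 0 with these numbers of pups.

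Single pups stood apart in some of the complex IV subunits that have a tissue form. Cox8b, the form of subunit 8 typical of muscle and brown fat, read 2.84 in hypo male 311, 2.34 in hypo female 721, 2.35 in hyper female 499, 0.77 in hyper male 498 and 0.67 in hypo+ female 763. The other 29 pups read -0.16 to 0.25, and over all pups the probe was well above background on 21 arrays. These are the 5 livers with raised muscle or brown fat markers. In hypo male 311 and hyper female 499, Ucp1, the uncoupling protein of brown fat, lay 4.33 and 3.36 log2 units above the control mean, and Cidea, a lipid droplet protein, 3.72 and 3.01. Ucp1 was well above background on 3 of the 34 arrays, so these differences are taken from a control mean near background and are no measure of a fold. All 10 muscle markers of these pups lay between -0.40 and 0.19. In hypo female 721, hyper male 498 and hypo+ female 763, the muscle myosin light chain Myl1 lay 5.82, 2.00 and 1.98 units above the control mean and skeletal actin Acta1 5.28, 2.03 and 1.49, while Ucp1 lay at 0.24, 0.18 and 0.07.

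**Figure D3:**
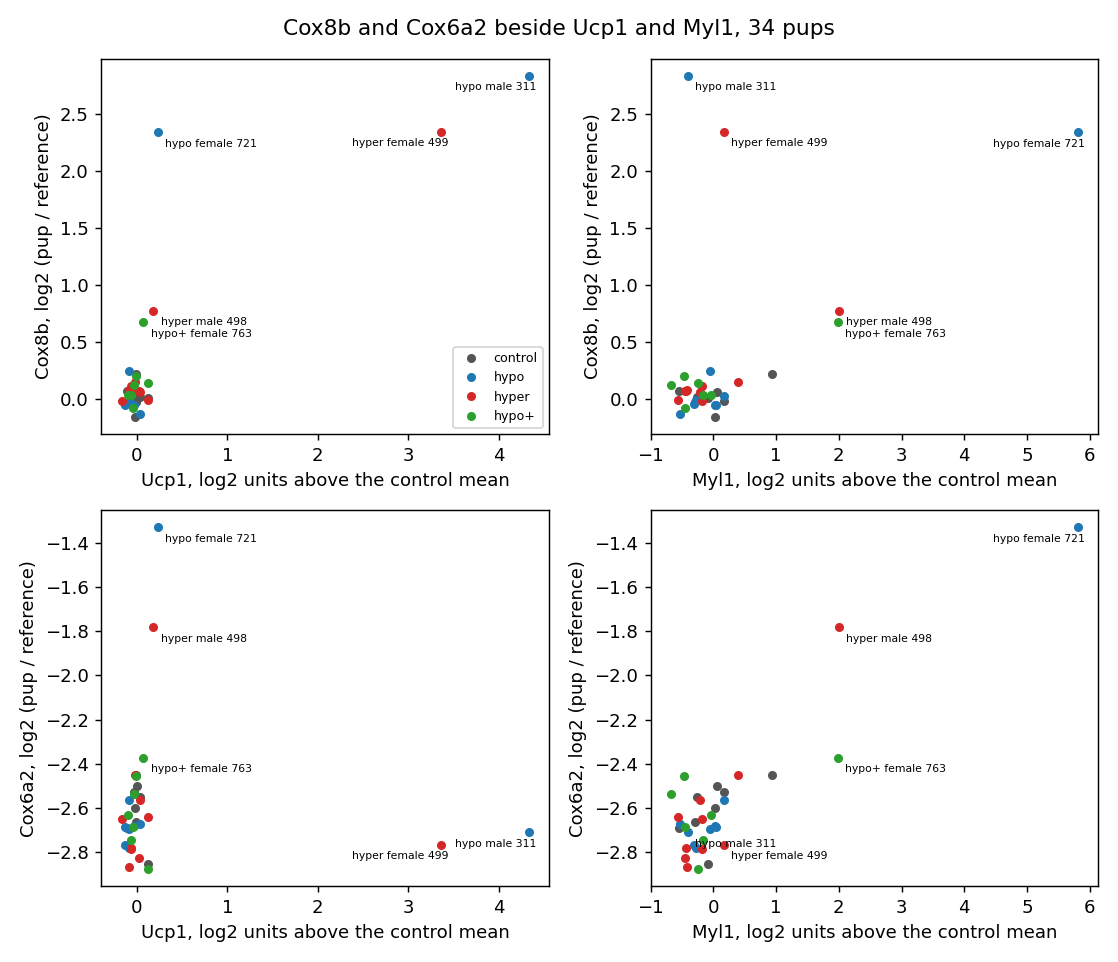
Log2 ratio of Cox8b (upper row) and Cox6a2 (lower row) against Ucp1 (left) and Myl1 (right), both in log2 units above the control mean of the same sex, for 34 pups coloured by treatment. The 5 pups with a raised Cox8b are named. Each is high in either Ucp1 or Myl1, and Cox6a2 is raised in hypo female 721 and hyper male 498 only.

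Cox6a2, the muscle form of subunit 6a, was raised in the livers with the strongest muscle markers. It read -1.33 in hypo female 721 and -1.78 in hyper male 498, while the other 32 pups read -2.88 to -2.37. The livers with brown fat markers were among these, at -2.71 in hypo male 311 and -2.77 in hyper female 499. Cox7a1, the muscle form of subunit 7a, read 0.75 in hypo female 721, 0.62 in hypo male 311 and 0.60 in hypo+ male 546, in which 1 of the 10 muscle markers, Myh7 (1.65), and none of the 6 brown fat markers was raised 2-fold. No fold-change is given for Cox8b, which was well above background on 2 of 4 arrays of control males and 1 of 4 of control females. Without the 5 pups the fold-change of Cox6a2 went from 0.14 to -0.13 in hypo females and from 0.14 to -0.05 in hyper males. That of Cox7a1 went from 0.15 to -0.04 in hypo females and from 0.10 to -0.08 in hypo males. From hypo to hypo+ males it went from 0.04 to 0.22, while in hypo+ females against controls it changed little, from 0.32 to 0.29. The part of other tissue in these values was not tested beyond leaving the pups out. The fits called none of these values with or without the 5 pups.

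The common forms had log2 fold-changes between -0.15 and 0.13 in hypo pups. In males and females Cox6a1 was at -0.08 ± 0.14 and -0.02 ± 0.10, Cox7a2 at -0.01 ± 0.12 and 0.02 ± 0.08, and Cox8a at 0.10 ± 0.13 and -0.07 ± 0.12. Cox6b1 was at -0.02 ± 0.12 and -0.15 ± 0.10, Cox7b at -0.15 ± 0.12 and -0.06 ± 0.09, and Ndufa4 at -0.11 ± 0.09 and -0.07 ± 0.10. The related Cox7a2l, which acts in joining complexes III and IV, was at 0.05 ± 0.13 and 0.13 ± 0.12. The testis form Cox6b2 was at -0.08 ± 0.08 and -0.04 ± 0.08. Of the 3 genes that encode the same mature subunit c of complex V, Atp5g1 was at -0.01 ± 0.10 and -0.02 ± 0.11, Atp5g2 at 0.10 ± 0.08 and -0.02 ± 0.08, and Atp5g3 at -0.01 ± 0.18 and -0.05 ± 0.10. Cox4i2, Cox7b2 and Cox8c, forms known from lung or testis, were too dim for a fold-change to be given.

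Males and females were compared across treatments. Over all 34 pups, limma called 0 of the 90 genes between the sexes, against 0.0996% of all probes. At an unadjusted p below 0.05 there were 10 genes, against 9.38% of all probes, and 66 of the 90 genes were lower in females, with a median of -0.04 and no other scaling computed. The sexes lay on separate slides except for 1 slide with 1 pup of each, so sex and slide cannot be told apart. These tests treat the 34 pups as independent, although male and female pups may share a dam. The lowest adjusted p was that of Ndufa5, at -0.17 ± 0.04 (limma, adjusted p = 0.147), picked after its values were seen. No sex difference in the response to hypo, hyper or hypo+ treatment was called, for the 90 genes or for any probe (0% of all probes in each). At an unadjusted p below 0.05 there were 0 of the 90 genes in each of these 3 tests, against 1.04%, 1.26% and 1.33% of all probes.

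Lists of related genes, chosen with results of these data known, were examined with the same fits: electron carriers and quinone synthesis (20 genes on the array), assembly factors with other names (37), the TCA cycle and pyruvate dehydrogenase (24), regulators of mitochondrial biogenesis (15) and mitochondrial ribosomal proteins (76). Gpd2, the mitochondrial glycerol 3-phosphate dehydrogenase that feeds electrons to ubiquinone and a known TH target, was the 1 of 20 electron carrier genes called in hypo females, at -0.83 ± 0.13 (limma, adjusted p = 0.0129), where 0.155% of all probes were called. In males it was at -0.80 ± 0.17 (limma, adjusted p = 0.124). From hypo to hypo+ it rose by 0.97 ± 0.17 in males and 1.30 ± 0.14 in females (limma, adjusted p = 0.0132 and 0.000215), in comparisons that called 0.369% and 0.556% of all probes. Its log2 ratio in females was 0.54, 0.41, 0.65 and 0.43 in controls, -0.42, -0.15, -0.12, -0.86 and -0.06 in hypo, 1.19, 1.10, 1.10, 0.87 and 1.10 in hyper and 1.01, 0.80 and 1.12 in hypo+ pups. No hypo female overlapped with a female of another group. Coq10b, which takes part in coenzyme Q function, was the other electron carrier gene called from hypo to hypo+, in males and by a dimmer probe only (0.95 ± 0.19, limma adjusted p = 0.0407).

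Of the 24 TCA cycle and pyruvate dehydrogenase genes, Idh3a, the catalytic subunit of NAD-dependent isocitrate dehydrogenase, was the 1 called in hyper males and 1 of 2 in hyper females. It rose by 0.52 ± 0.09 in males and 0.75 ± 0.11 in females (limma, adjusted p = 0.0351 and 0.01), where 0.0753% and 0.158% of all probes were called. The female values were 0.10, 0.33, -0.05 and 0.10 in controls, -0.38, -0.00, 0.11, -0.48 and -0.18 in hypo, 0.88, 0.94, 0.85, 0.83 and 0.81 in hyper and 0.52, 0.76 and 0.38 in hypo+ pups. All hyper females lay above all other females. From hypo to hypo+ Idh3a rose by 0.57 ± 0.09 and 0.74 ± 0.12 (limma, adjusted p = 0.00941 and 0.00571). Pdp1, the phosphatase that activates pyruvate dehydrogenase, rose by 0.75 ± 0.08 in hyper females (limma, adjusted p = 0.00107), and its male value was 0.45 ± 0.11 (limma, adjusted p = 0.274). Dlat, a subunit of pyruvate dehydrogenase, was called from hypo to hypo+ in both sexes and Pdhb, another, in males, each by its dimmer probe only.

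Ppargc1b, a coactivator that promotes mitochondrial biogenesis, was the 1 of 15 regulators called. It was at -0.69 ± 0.10 in hypo females (limma, adjusted p = 0.00675), where 0.155% of all probes were called. In hypo males it was at -0.64 ± 0.17 (limma, adjusted p = 0.358). From hypo to hypo+ it rose by 1.22 ± 0.17 in males and 1.24 ± 0.11 in females (limma, adjusted p = 0.00234 and 2.02e-05). Both of its probes were called, in comparisons that called 0.369% and 0.556% of all probes. Its log2 ratio in males was 0.99, 0.61, 1.16 and 0.87 in controls, 0.26, 0.45, -0.02 and 0.39 in hypo, 0.93, 1.39, 1.34, 1.23 and 1.18 in hyper and 1.23, 1.18, 2.05 and 1.52 in hypo+ pups. Hypo males lay below all other males. Higd1a, a small membrane protein associated with complex IV, was the 1 of 37 assembly factors called and fell by 0.57 ± 0.09 in hypo males (limma, adjusted p = 0.0249), where 0.0971% of all probes were called, with -0.46 ± 0.11 in females (limma, adjusted p = 0.139). In hypo+ pups against controls none of the genes of these 4 lists was called with limma in either sex. At an unadjusted p below 0.05 there were 4 of 20, 7 of 37, 2 of 24 and 2 of 15 genes in males (7.56% of all probes), and 3 of 20, 1 of 37, 2 of 24 and 4 of 15 in females (4.79% of all probes). Coq10b, which the paper lists as significantly raised in hypo+ males, was at 1.00 ± 0.22 there (limma, adjusted p = 0.22).

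**Figure D4:**
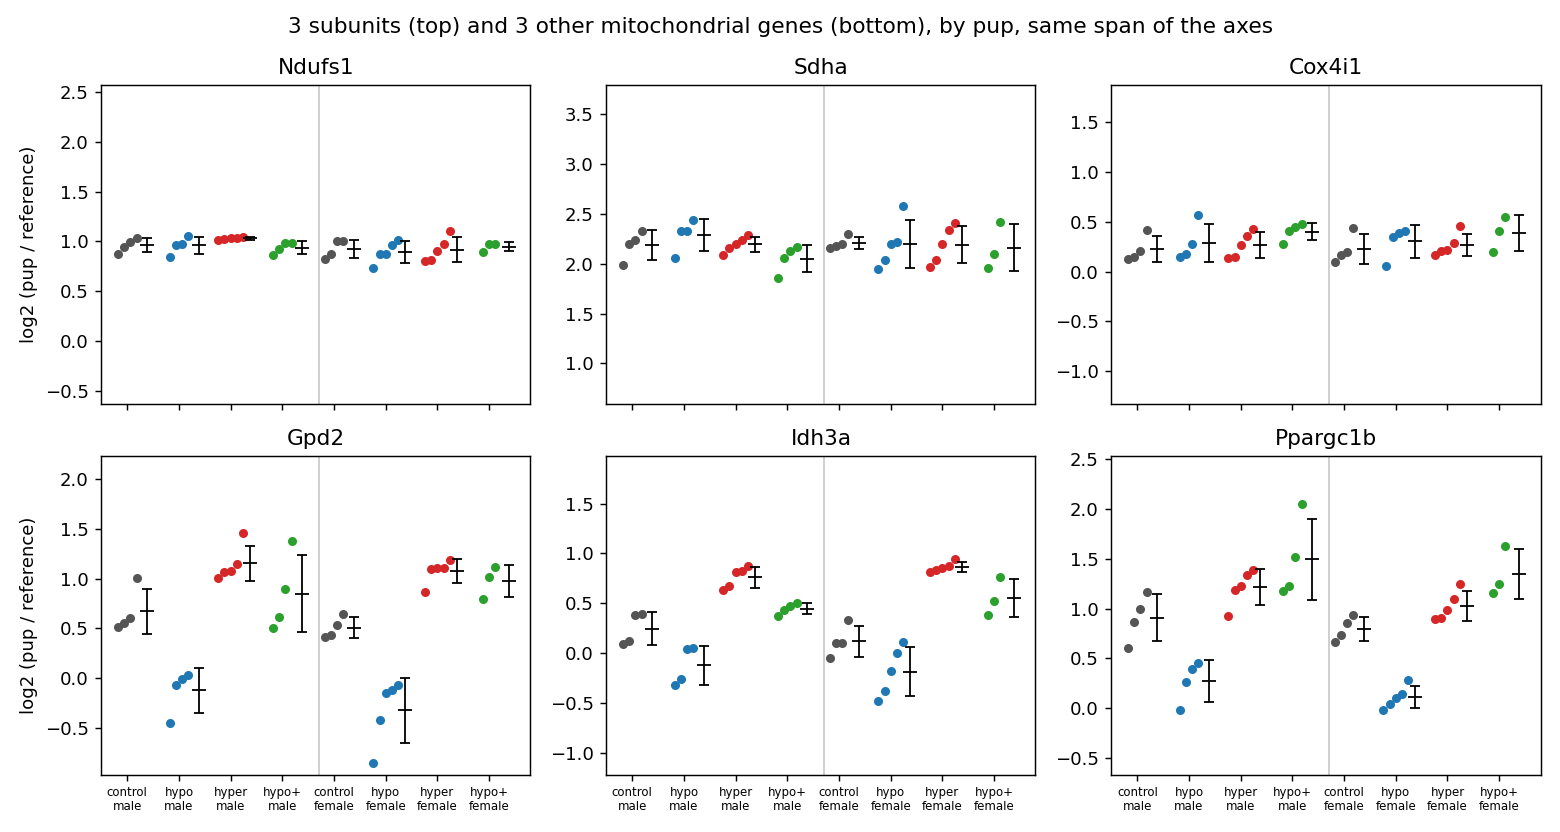
Log2 ratio of pup to reference for 3 subunits (upper row) and for Gpd2, Idh3a and Ppargc1b (lower row), with males left and females right of the line in each panel. Points are pups, bars are the mean ± SD of a group, and all axes span the same number of log2 units. In the upper row the groups overlap. In the lower row the hypo pups lie lowest, below all other pups of their sex in Gpd2 and Ppargc1b and, for Idh3a, in males.

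Some of these calls were lost when single pups were left out or a setting was changed. The call of Gpd2 in hypo females was kept in 26 of 31 recomputations and lost without control female 523 (-0.82) or 394 (-0.78). It was also lost under median centring, in the Cy5 channel alone and with only the 2 groups in the fit. Its male call from hypo to hypo+ was lost under the same settings and without hypo male 311 (0.86). Leaving out the 5 pups with muscle or brown fat markers, or the 2 slides that stood high, also ended it. The female call of Gpd2 from hypo to hypo+ was lost only under median centring. Idh3a was called in hyper males in 11 of 31 recomputations. It was lost under each of the 5 other scalings, with slide as a fixed block and with only the 2 groups. It was also lost without the pups with muscle or brown fat markers, the controls with acinar markers or the 2 slides. Leaving out 10 of the 17 male pups in turn ended that call, with values of 0.47 without control male 881, 0.48 without 522, 0.49, 0.55, 0.54, 0.51 and 0.50 without hyper males 864, 784, 498, 696 and 583, and 0.52 without each of hypo+ males 454, 761 and 363. In hyper females it was lost without control 523 or 882 (0.74 each). Median centring, the scanner's ratios and leaving out the 5 pups with muscle or brown fat markers also ended it there. From hypo to hypo+ it was lost in females under median centring and with only the 2 groups, and in males without hypo male 311 (0.52). That last call was kept in 24 of 31 recomputations and also lost with slide as a fixed block (0.60), under median centring (0.45), in the scanner's ratios (0.60), with only the 2 groups in the fit (0.57), without the 5 pups with muscle or brown fat markers (0.52) and without the 2 slides that stood high (0.52). Ppargc1b kept its male call from hypo to hypo+ in 28 of 31 and lost it with slide as a fixed block (1.16), under median centring (1.07) and with only the 2 groups (1.22). Higd1a kept its call in 15 of 31 recomputations and lost it without control male 881 (-0.54), 832 (-0.60) or 391 (-0.52) and hypo male 311 (-0.48) or 723 (-0.55). It was also lost under each of the 5 other scalings, with averaged probes, with slide as a fixed block and with only the 2 groups. Leaving out the pups with muscle or brown fat markers, the controls with acinar markers or the 2 slides also ended it. In hypo females Ppargc1b kept its call in 29 of 31 and lost it under median centring and in the Cy5 channel alone. Ppargc1b kept its call from hypo to hypo+ in females, and Pdp1 in hyper females, in 31 of 31.

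The mitochondrial ribosomal proteins, like the subunits, lay near 0, with medians between -0.04 and 0.05 over the 8 comparisons, with no other scaling computed for either ribosomal list. The 50 cytosolic ribosomal proteins on the array, taken as a reference list of abundant housekeeping transcripts, had a median of 0.33 against controls in hypo+ males, with 38 at an unadjusted p below 0.05 (7.56% of all probes), and 0.21 in hypo+ females, with 13 (4.79% of all probes). It was 0.15 in hypo males, with 9 (5.19% of all probes), and 0.13 in hypo females, with 5 (4.72% of all probes), and in hyper pups 0.01 and -0.00, with 0 in both sexes. Limma called none of the 50 in these 6 comparisons. In hypo+ pups against controls the 90 oxidative phosphorylation genes had medians of 0.04 and 0.03.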

How the data were processed

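Per the labels, the liver RNA of 34 pups (Cy5) was hybridised with a universal mouse reference (Cy3), with no dye swap. The deposited scanner output (Agilent Feature Extraction 10.1.1.1) gave median intensities and log10 ratios, and the authors' loess-normalized log2 ratios were in the value table; the direction of Cy5 over Cy3 was borne out by the scanner values. Before analysis the authors removed outlying arrays. Here log2 ratios of the deposited median intensities were loess-normalized within arrays without background subtraction, outlier spots (77 to 212 an array) were left out, and spots of a probe were averaged. Groups were compared within each sex with limma 3.58.1 in R 4.3.3, with Benjamini-Hochberg adjustment over 41174 probes at 0.05. The labels name no dams, and by the methods pups within a sex were independent, so pups were the units of the tests. The main fits held no slide term, although arrays of 1 slide were correlated (consensus correlation 0.234 over all arrays). Each gene was represented by its probe with the highest mean Cy5 signal, and counted as called if any of its probes was. The genes, lists and tests were chosen with earlier results of these data known. Genes were named if they were Ndufs1, Sdha or Cox4i1, if called, if they had the largest same-sign mean change of their complex, if they belonged to an isoform family, if 1 pup lay apart, or as known TH targets; 1 gene so named is not reported here. Alternatives were background correction (normexp, offset 50), median centring, the authors' log2 ratios, the deposited log10 ratios, Cy5 alone, a filter on dim probes, averaged probes, slide as a fixed or random block, both sexes in 1 fit, only the groups compared, and each pup left out. Leaving out 5 pups with muscle or brown fat markers, 3 controls with pancreatic acinar markers, or 2 slides, was chosen after seeing the data. The scripts were tested on simulated data.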

Additional observations from a re-analysis of the deposited data

Results flagged for a closer look

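In 15 of 224 groups and genes examined, the highest or lowest pup stood apart from the others of its group by a wide gap; chance gives about 5%, and 14 of the 15 are given. In each case the value is a log2 ratio of pup to reference, and no cause was tested.

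Of the complex IV forms typical of muscle or brown fat, Cox8b stood at 2.84 in hypo male 311 (others -0.14 to 0.25), 0.77 in hyper male 498 (others -0.01 to 0.08), 2.34 in hypo female 721 (others -0.06 to 0.03) and 2.35 in hyper female 499 (others -0.02 to 0.15). Cox6a2 stood at -1.78 in hyper male 498 (others -2.86 to -2.56) and -1.33 in hypo female 721 (others -2.77 to -2.56). These are pups with raised muscle or brown fat markers.

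In the 2 slides whose 4 pups each lay above the control mean in the level of the 90 genes, Uqcrq stood at 2.27 in control male 832 (others 1.84 to 1.90) and 2.19 in control female 831 (others 1.79 to 1.84). Cox7a2 stood at 1.09 in hypo male 576 (others 0.46 to 0.56), and Ndufa4 at 1.74 in control female 831 (others 1.47 to 1.50).

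On other slides, Atp5k was low, at 1.29 in control male 522 (others 1.52 to 1.56) and 1.23 in hypo+ male 761 (others 1.48 to 1.50). Uqcrfs1 stood at 2.18 in hypo+ male 454 (others 1.68 to 1.75). Sdhb stood at 2.11 in hypo female 575 (others 1.83 to 1.91).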

How the results depend on the processing

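The number of called genes among the 90 ranged from 0 to 1 with single pups left out in hypo+ against hypo males and was 0 in the other 7 comparisons, and it was 0 under every other alternative run. Under median centring the median log2 fold-change moved to -0.22, -0.11 and -0.33 in hypo, hyper and hypo+ males against controls, moved to -0.084 in hypo+ against hypo males, and moved to 0.17 in hyper females and to -0.10 in hypo+ against hypo females. In the Cy5 channel alone it moved to -0.072 in hypo+ males. The cause was not tested. With single pups left out, the medians ranged in males from -0.09 to 0.00 (hypo), -0.02 to 0.04 (hyper), 0.00 to 0.09 (hypo+) and 0.05 to 0.15 (hypo+ against hypo), and in females from -0.06 to 0.02, 0.01 to 0.10, -0.00 to 0.07 and 0.04 to 0.12. Without the 5 pups with muscle or brown fat markers, the medians from hypo to hypo+ were 0.08 in males and 0.13 in females, and without the 3 controls with acinar markers those of hypo pups against controls were -0.013 and 0.019. Of 7432 recomputed fold-changes of named genes, 7282 moved by less than the spread between pups and 686 changed sign; of 2976 of known TH targets and called list genes, 90 fell short of the threshold and 40 newly passed it. No paired analysis was possible because each animal number belongs to 1 pup. Slide was a block only in the alternatives named for it, and the main fits and their p-values held no slide term. Signal limits Cox8c, Cox7b2, Cox8b and, least, Cox4i2, which were well above background on 0, 9, 21 and 27 of the 34 arrays.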
